A study of Mus musculus with 15 samples.

Results

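The angiopoietins and the Tie receptors form a signalling system of blood vessels. The 5 genes described here are its core in mouse: the receptors Tek (Tie2) and Tie1, the ligands Angpt1 and Angpt2, and Ptprb, the receptor phosphatase of endothelial cells (VE-PTP). They were taken by gene symbol, each with the probe set of highest mean over the arrays. Each of the 5 had exactly 1 probe set on the array, so the choice among probe sets had no effect, and they are 5 of 19938 named genes measured.

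Endothelial cells were sorted by green fluorescence from 3 organs (brain, heart, liver) of adult Tie2-GFP (FVB background) mice, aged 8 to 12 weeks, with as many males as females. In this strain the Tek promoter drives the fluorescent protein, so every sample was selected through the promoter of one of the genes described; Tek is also active in some cells of the blood lineage. There were 5 samples per tissue, 15 arrays in all. Each brain sample pooled RNA of 6 mice, each heart sample of 4 and each liver sample of 2, with no treatment and no other genotype, and large vessels were removed. The tissues were dissociated with different enzymes (collagenase with DNase and a short trypsin step for brain, collagenase for heart, dispase at room temperature for liver), so tissue, enzyme and pool size cannot be told apart.

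TEK is a receptor tyrosine kinase of the endothelial surface. ANGPT1, made mainly by mural cells and other cells around the vessel, activates it and thereby AKT, which keeps vessels quiet and tight and holds FOXO1 out of the nucleus. ANGPT2, made and stored by endothelial cells, can oppose ANGPT1 and is raised by FOXO1 and in activated or remodelling vessels. TIE1 binds no angiopoietin with high affinity and modulates TEK, while PTPRB removes phosphate from TEK and from proteins of the endothelial junction.

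Levels are log2 values as deposited, where a step of 1 is a doubling, and are compared only between tissues for the same gene. Array medians over all named genes lay between 5.98 and 6.11, and arrays correlated across genes at r = 0.978 to 0.993 within a tissue and 0.918 to 0.960 between tissues. All 19 measured endothelial markers were above the 95th percentile of olfactory receptor genes, a set with little transcription in these tissues that served as a guide to array background, in each of the 3 tissues. Their means for brain, heart and liver were 10.19 ± 0.10, 10.19 ± 0.07 and 10.02 ± 0.11 (SD, n = 5 each). Markers of other cells were also present. The 14 cardiomyocyte markers averaged 7.85 to 9.37 on the heart arrays against 5.60 to 6.08 elsewhere, and the 13 macrophage markers averaged 7.81, 8.20 and 7.97 in liver replicates 1, 3 and 4 against 5.35 to 6.11 on all other arrays. The 10 hepatocyte markers averaged 7.35 to 8.14 on the liver arrays against 5.12 to 6.22 elsewhere. Among them Ttr was highest in brain, with brain, heart and liver means of 12.49 ± 0.30, 5.33 ± 0.28 and 8.44 ± 0.87. Cyp2e1 was alike in brain (6.72) and liver (6.66), and the others had their highest mean in liver. The source of Ttr in the brain samples was not tested. The 10 fibroblast markers averaged 6.43 to 7.60 on the heart arrays against 5.41 to 5.94 elsewhere. The part of these cells in the differences between tissues was not tested. In bulk samples, fewer cells of a type and less RNA per cell cannot be told apart.

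Tek was lowest in heart, and brain and liver were close. Tek (probe set 10505954) read 11.59, 11.62, 11.53, 11.29 and 11.48 in brain replicates 1 to 5. In heart it read 11.02, 11.06, 11.05, 11.02 and 10.97, and in liver 11.31, 11.44, 11.25, 11.37 and 11.26. Every heart array lay below every brain and liver array, while brain and liver overlapped. Brain exceeded heart by a log2 difference of 0.48 (SE 0.072, 1.39-fold, limma adjusted p = 0.000107), and heart was below liver by 1.23-fold (log2 difference -0.30, SE 0.072, limma adjusted p = 0.00428). Brain minus liver was 0.18, with a 95% interval of 0.025 to 0.33 (limma adjusted p = 0.0868). All of these are differences among cells selected through the Tek promoter, and how the sort affected them was not tested. Centring each array on 12 other endothelial genes, listed by general knowledge, ended the difference of heart from liver (-0.20, limma adjusted p = 0.168) and brought that of brain from liver past the threshold (0.32, limma adjusted p = 0.0270). Leaving out brain replicate 4 also brought brain minus liver past the threshold (0.23, limma adjusted p = 0.0214). Tek read 11.31, 11.25 and 11.37 on the 3 liver arrays with high macrophage markers and 11.44 and 11.26 on the other 2; the part of macrophages in these levels was not tested.

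Tie1, the second receptor of the family, was at a similar level in all 3 tissues. Tie1 (probe set 10515771) read 9.14, 9.27, 8.74, 8.41 and 8.67 in brain. It read 8.87, 8.87, 9.08, 8.87 and 8.90 in heart and 9.08, 8.77, 8.83, 8.88 and 8.64 in liver. The groups overlapped throughout, and brain was the most variable, with an SD of 0.36 around a mean of 8.85; heart was at 8.92 ± 0.09 and liver at 8.84 ± 0.16 (SD, n = 5 each). No contrast passed the threshold. Brain minus heart was -0.070 (95% interval -0.36 to 0.22, limma adjusted p = 0.800), brain minus liver 0.0085 (95% interval -0.28 to 0.29, limma adjusted p = 0.979) and heart minus liver 0.078 (95% interval -0.21 to 0.36, limma adjusted p = 0.717). The intervals leave room for differences of up to about 0.36 on the log2 scale in either direction.

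The promoters of both receptor genes are shown because one of them drives the reporter and because the paired receptors differed in how their levels changed between tissues. Each is the 250 bases upstream of the RefSeq start site, read on the strand of the gene from the C57BL/6J reference (GRCm38.p6), not from FVB mice. Capitals mark GGAA, the core of sites bound by ETS family factors, on either strand (TTCC on the strand shown). The Tek stretch is chr4:94739039-94739288 on the plus strand and the Tie1 stretch chr4:118489850-118490099 on the minus strand.
Tek: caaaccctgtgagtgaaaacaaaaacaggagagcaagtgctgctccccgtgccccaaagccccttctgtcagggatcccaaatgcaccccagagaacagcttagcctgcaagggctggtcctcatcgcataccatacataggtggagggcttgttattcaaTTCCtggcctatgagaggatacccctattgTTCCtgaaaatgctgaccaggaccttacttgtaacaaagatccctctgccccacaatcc
Tie1: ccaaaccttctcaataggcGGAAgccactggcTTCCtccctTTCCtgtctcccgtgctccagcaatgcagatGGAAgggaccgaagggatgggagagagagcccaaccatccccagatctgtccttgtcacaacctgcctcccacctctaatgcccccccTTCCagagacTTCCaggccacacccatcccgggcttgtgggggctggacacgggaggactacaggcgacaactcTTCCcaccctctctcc

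The Tek stretch holds 2 GGAA cores, both on the opposite strand, and the Tie1 stretch 7, of which 2 are on the strand shown and 5 on the other. Of 32851 promoter entries cut to the same length, 93.4% hold at least 1 GGAA, 76.8% at least as many as Tek and 3.82% at least as many as Tie1. The letters GATA, the core of sites of GATA factors, occur 1 time for Tek and 0 times for Tie1 on either strand, and 53.6% of entries hold them. Both counts describe letters in these windows, not binding. The RefSeq table used matched 2 of the 5 genes; Angpt1, Angpt2 and Ptprb are named only.

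Set against Tek within each array, Tie1 was relatively highest in heart. The difference Tie1 minus Tek of an array cancels whatever shifts both probe sets of that array alike; its size says nothing about which gene is more abundant. For brain, heart and liver it was -2.66 ± 0.24, -2.11 ± 0.09 and -2.49 ± 0.17 (SD, n = 5 each). Heart did not overlap with either other tissue. It differed from brain by 0.55 and from liver by 0.38, each with an exact two-sided permutation p = 0.00794, the smallest that 5 against 5 arrays can give, and p = 0.0119 after Benjamini-Hochberg adjustment over 9 such tests. Brain and liver differed by -0.17 (exact permutation p = 0.238, adjusted p = 0.268). Heart replicates 1 and 3 had the highest cardiomyocyte markers. Without them the differences of heart did not pass (adjusted p = 0.0536 each by exact permutation). Their sizes changed little, to -0.52 for brain minus heart and 0.35 for heart minus liver. The remaining heart arrays (-2.19, -2.15 and -2.07) still lay above every brain and liver array. With fewer arrays the smallest p that the permutation test can give is larger, and the part of cardiomyocytes was not tested. Over the 15 arrays, which share labelling, hybridisation and normalization, the receptors' deviations from their tissue means had r = 0.70. Brain weighs most in this value. The SDs of Tek and Tie1 were 0.13 and 0.36 in brain, 0.04 and 0.09 in heart, and 0.08 and 0.16 in liver. In liver the orders differed, with Tie1 highest on replicate 1 (9.08) and Tek on replicate 2 (11.44). The r of such deviations was 0.70 for Tie1 with Angpt1, 0.52 for Tie1 with Ptprb and 0.55 for Tek with the mean of the endothelial markers.

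Ptprb separated all 3 tissues, with liver highest and heart lowest. Ptprb (probe set 10366476) read 11.98, 12.11, 11.91, 11.91 and 11.94 in brain. It read 11.65, 11.76, 11.59, 11.48 and 11.54 in heart and 12.37, 12.28, 12.24, 12.25 and 12.25 in liver. No array of one tissue overlapped with those of another. Liver exceeded heart by 1.59-fold (log2 difference of heart minus liver -0.67, SE 0.070, limma adjusted p = 8.97e-07), brain exceeded heart by 1.29-fold (log2 difference 0.37, SE 0.070, limma adjusted p = 0.00114) and liver exceeded brain by 1.24-fold (log2 difference of brain minus liver -0.31, SE 0.070, limma adjusted p = 0.00299). The difference between brain and liver was -0.17 (limma adjusted p = 0.272) with arrays centred on the 12 endothelial genes. Without liver replicates 1, 3 and 4, whose macrophage markers were high, it was -0.29 (limma adjusted p = 0.0536) from 2 liver arrays; the part of macrophages in the liver level was not tested.

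Relative to Tek, its substrate, Ptprb was higher in liver than in the other tissues. Ptprb minus Tek within an array had brain, heart and liver means of 0.47 ± 0.10, 0.58 ± 0.09 and 0.95 ± 0.09 (SD, n = 5 each). Liver did not overlap with brain or heart, and differed from brain by 0.48 and from heart by 0.37 (exact permutation p = 0.00794 each, adjusted p = 0.0119). Brain minus heart was -0.11 (exact permutation p = 0.103, adjusted p = 0.133). Leaving out brain replicate 4 changed that last value to -0.15 (exact permutation, adjusted p = 0.0408). The lower Ptprb of heart came with a lower Tek, while the higher Ptprb of liver did not come with a higher Tek than in brain.

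Angpt1, the activating ligand, was higher in the brain samples than in the others and near array background in heart and liver. Angpt1 (probe set 10428376) read 6.05, 5.82, 5.63, 4.95 and 4.43 in brain replicates 1 to 5. It read 4.07, 4.14, 4.33, 3.76 and 3.80 in heart and 3.97, 3.29, 4.04, 3.56 and 3.68 in liver. The lowest brain array lay just above the highest heart array, and heart and liver overlapped. Brain exceeded heart by 2.56-fold (log2 difference 1.35, SE 0.25, limma adjusted p = 0.000655) and liver by 3.17-fold (log2 difference 1.67, SE 0.25, limma adjusted p = 4.16e-05); heart minus liver was 0.31 (95% interval -0.21 to 0.83, limma adjusted p = 0.384).

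The brain values were uneven and low in absolute terms. For brain, heart and liver, the median of 1027 olfactory receptor genes was 3.86, 3.91 and 3.83, and their 95th percentile 5.66, 5.77 and 5.64. Angpt1 was above that percentile on 2 of 5 brain arrays and on 0 of 5 heart and 0 of 5 liver arrays. Its mean exceeded 91.7% of the olfactory receptor genes in brain, 55.5% in heart and 45.6% in liver. Folds against heart and liver are folds against a level near background, and no detection call could be made from these values.

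Mural cells are a known source of ANGPT1, and their markers varied among the arrays. The 14 pericyte and smooth muscle markers averaged 7.66, 6.38, 6.74, 6.86 and 6.14 in brain replicates 1 to 5, so replicate 1 was highest and replicate 5 lowest for both these markers and Angpt1. Between these ends the orders differed: replicate 2 had the higher Angpt1 of replicates 2 and 4 (5.82 against 4.95) and the lower marker mean (6.38 against 6.86). Over the 15 arrays, deviations from the tissue means had r = 0.53 for Angpt1 with these markers. This was the highest r of Angpt1 with any marker list, followed by 0.44 for the stellate markers. The marker means of heart, 6.70 to 8.01, overlapped with those of brain and reached higher, with Angpt1 at 3.76 to 4.33. Liver had marker means of 6.08 to 6.19. Above the 95th percentile of olfactory receptor genes were 12 of the 14 markers in brain, 13 in heart and 7 in liver. Of the first 3 on the list, the receptor Pdgfrb was at 5.96 ± 0.62 in brain and 7.04 ± 0.77 in heart, the proteoglycan Cspg4 at 5.55 ± 0.24 and 5.58 ± 0.22, near background, and Rgs5 at 8.73 ± 1.01 and 10.47 ± 0.59 (SD, n = 5 each). Without brain replicate 1 the difference of Angpt1 from heart was 1.19 (limma adjusted p = 0.00198) and from liver 1.50 (limma adjusted p = 0.000123). The part of mural cells in the differences between brain arrays or between tissues was not tested.

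**Figure D1:**
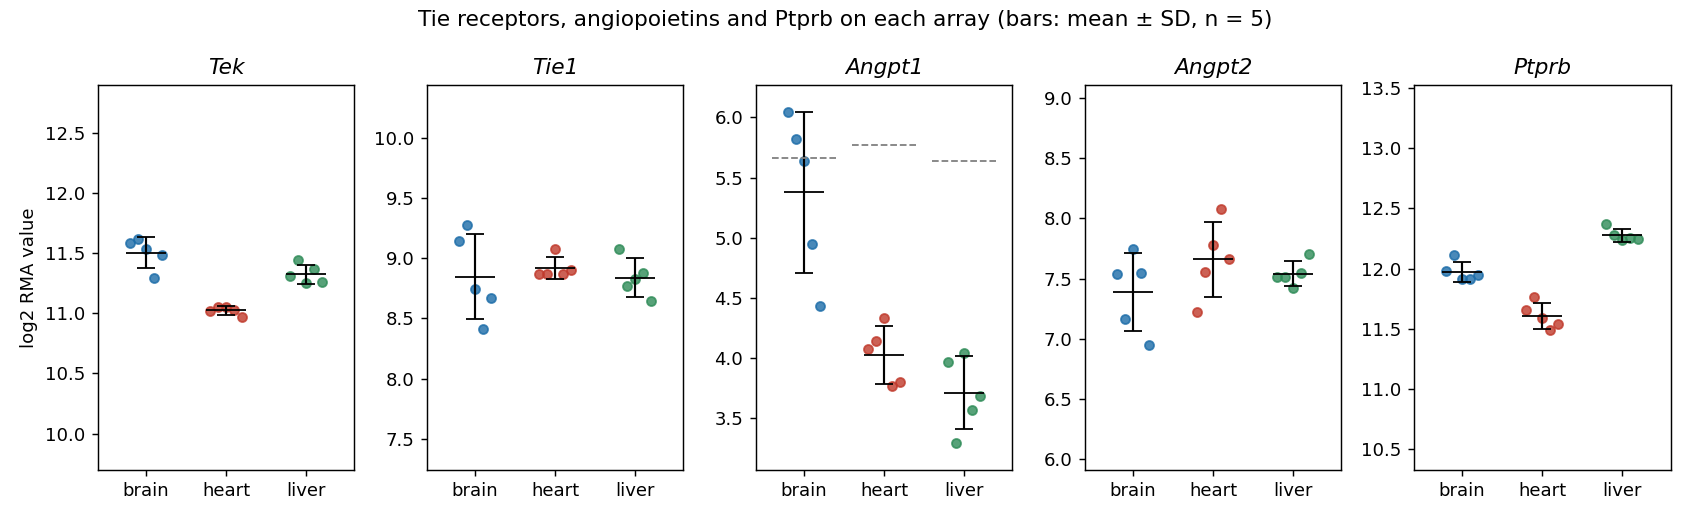
Log2 RMA value (vertical axes, each spanning 3.2 log2 units) of Tek, Tie1, Angpt1, Angpt2 and Ptprb on each array, with 1 point per array in replicate order and bars for the mean ± SD of 5 arrays per tissue; dashed lines in the Angpt1 panel are the 95th percentile of olfactory receptor genes. The heart arrays are lowest for Tek and Ptprb, the Ptprb groups do not overlap, and Angpt1 spans 4.43 to 6.05 in brain against 3.29 to 4.33 elsewhere.

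**Figure D2:**
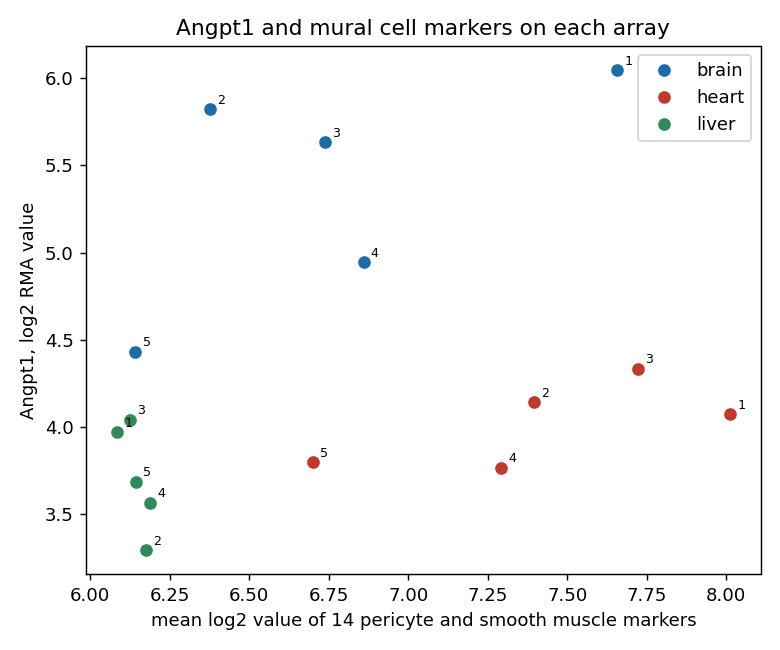
Log2 value of Angpt1 (vertical axis) against the mean log2 value of 14 pericyte and smooth muscle markers (horizontal axis), 1 point per array, coloured by tissue and labelled with the replicate number. The heart arrays have marker means of 6.70 to 8.01, which overlap with 6.14 to 7.66 in brain, and Angpt1 values of 3.76 to 4.33, below those of the brain arrays.

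Angpt2, the ligand that endothelial cells make themselves, showed no difference that passed the threshold. Angpt2 (probe set 10577315) read 7.53, 7.16, 7.74, 7.55 and 6.94 in brain. It read 7.22, 7.55, 7.78, 8.08 and 7.67 in heart and 7.51, 7.51, 7.42, 7.55 and 7.71 in liver. All groups overlapped, with means of 7.39 ± 0.32, 7.66 ± 0.31 and 7.54 ± 0.10 (SD, n = 5 each). Brain minus heart was -0.27 (95% interval -0.60 to 0.049, limma adjusted p = 0.277), brain minus liver -0.16 (95% interval -0.48 to 0.17, limma adjusted p = 0.556) and heart minus liver 0.12 (95% interval -0.20 to 0.44, limma adjusted p = 0.617). Every array was above the 95th percentile of olfactory receptor genes.

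The balance of the ligands differed between brain and the other tissues. Angpt2 minus Angpt1 within an array had brain, heart and liver means of 2.01 ± 0.58, 3.64 ± 0.46 and 3.83 ± 0.35 (SD, n = 5 each). Brain did not overlap with heart or liver and differed from them by -1.63 and -1.82 (exact permutation p = 0.00794 each, adjusted p = 0.0119), while heart minus liver was -0.19 (exact permutation p = 0.444, adjusted p = 0.444). Since Angpt1 was near background in heart and liver, these differences cannot be read as ratios of the ligands' RNA.

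**Figure D3:**
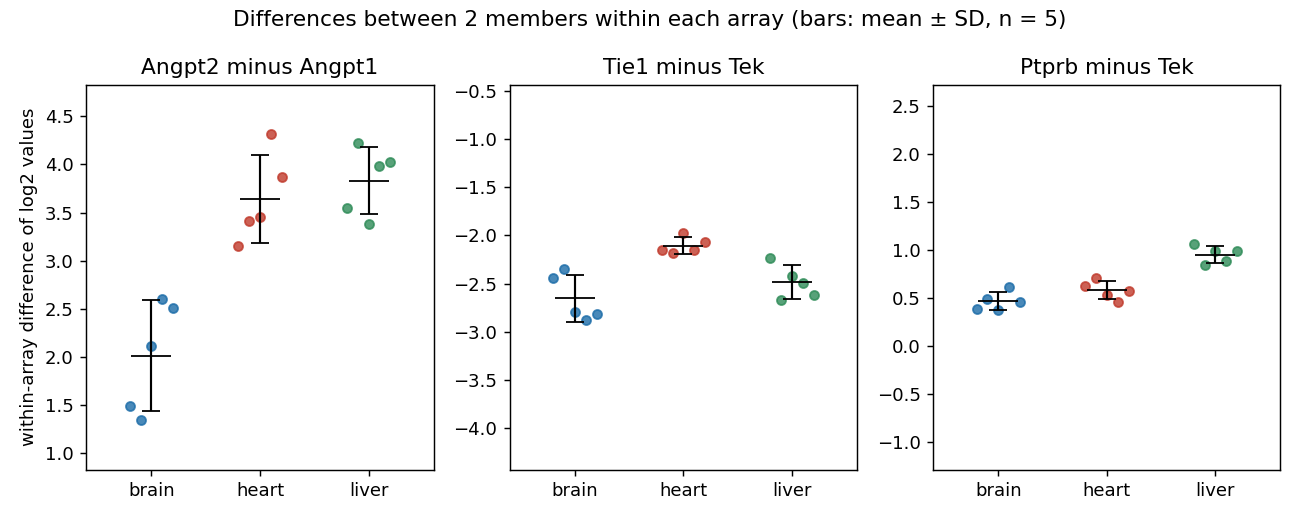
Within-array differences of log2 values (vertical axes, each spanning 4 log2 units) for Angpt2 minus Angpt1, Tie1 minus Tek and Ptprb minus Tek, 1 point per array, with bars for the mean ± SD of 5 arrays per tissue. Brain stands apart for the ligands (mean 2.01), heart for the receptors (mean -2.11) and liver for Ptprb against Tek (mean 0.95).

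The members called in each comparison were as follows. Between brain and heart 3 of 5 passed, Tek, Angpt1 and Ptprb, all higher in brain, against 15.4% of all genes (8.29% higher in brain, 7.11% lower). Between brain and liver 2 of 5 passed, Angpt1 higher and Ptprb lower in brain, against 25.1% of all genes (11.1% higher in brain, 14% lower). Between heart and liver 2 of 5 passed, Tek and Ptprb, both lower in heart, against 27.8% of all genes (11.5% higher in heart, 16.3% lower). The members' median absolute log2 difference was 0.37, 0.18 and 0.30 in the same order, beside 0.13, 0.14 and 0.16 over all genes. The 3 comparisons share their samples, so their counts are not independent. Among the 10449 genes with a mean of at least 6, which 4 of the members have, the shares called were higher. They were 24.6% between brain and heart, 39.7% between brain and liver and 45.0% between heart and liver. Centring on the 12 endothelial genes moved the median difference of all genes from -0.0022 to 0.14 for brain minus liver and from 0.032 to 0.14 for heart minus liver, and the share of called genes that were higher in the first tissue from 44.1% to 63.3% and from 41.3% to 55.9%. Ptprb in heart stayed below both other tissues under that scaling, as did Tek below brain.

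**Figure D4:**
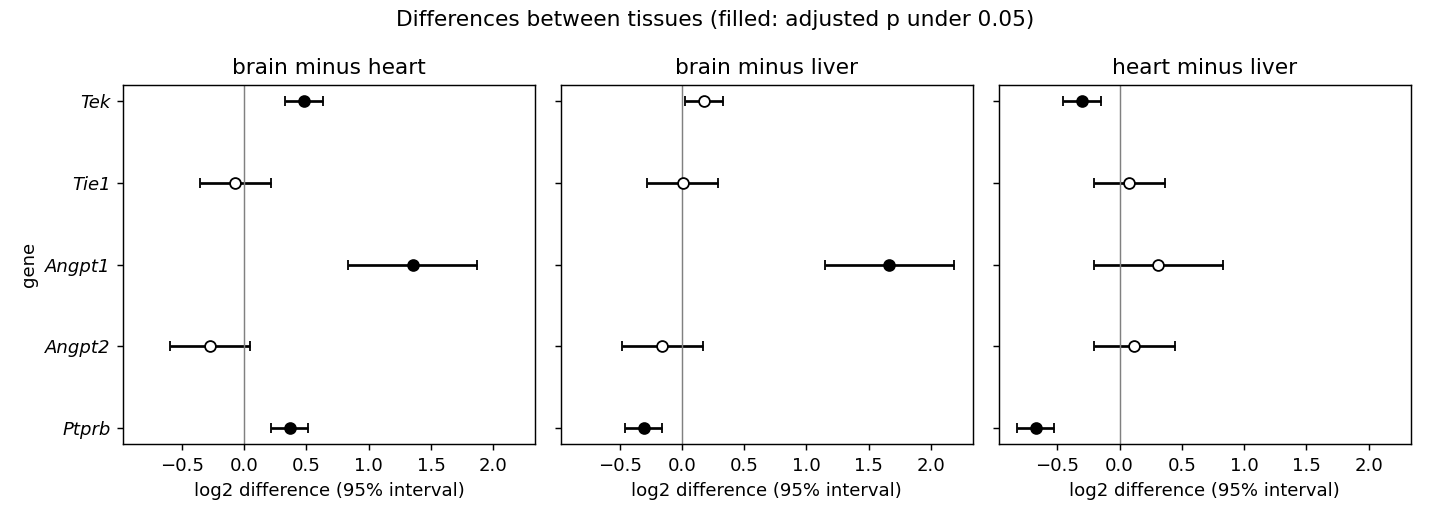
Log2 difference with its 95% interval (horizontal axes) for each of the 5 genes (vertical axis) in the 3 comparisons; filled points passed an adjusted p of 0.05 in limma. Angpt1 has the largest differences, 1.35 and 1.67, and the intervals of Tie1 and Angpt2 include 0 in each comparison.

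The other ligands read near array background. Angpt4, the third angiopoietin, had brain, heart and liver means of 5.63 ± 0.16, 5.70 ± 0.15 and 5.74 ± 0.20. Svep1, an extracellular protein reported to bind TIE1, was at 5.46 ± 0.06, 5.55 ± 0.09 and 5.36 ± 0.15, and Lect2, a liver-secreted protein also reported to bind TIE1, at 4.03 ± 0.13, 4.23 ± 0.15 and 4.09 ± 0.12 (SD, n = 5 each). None of these 3 passed in any comparison by limma (smallest adjusted p = 0.0813, Svep1 in heart minus liver). Unadjusted limma p-values were under 0.05 for Svep1 in heart minus liver and Lect2 in brain minus heart. For brain, heart and liver, the 95th percentile of olfactory receptor genes was 5.66, 5.77 and 5.64. The means of Svep1 and Lect2 were below it in each tissue, and that of Angpt4 was above it only in liver. At such levels the lack of calls does not show equal expression.

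Beyond the 5 members, 56 of 60 genes listed for the pathway were measured. Of these, 18 passed between brain and heart (8 higher and 10 lower in brain), 25 between brain and liver (15 higher and 10 lower in brain) and 23 between heart and liver (15 higher and 8 lower in heart), against 15.4%, 25.1% and 27.8% of all genes. Their median log2 differences were -0.049, 0.12 and 0.12, beside -0.028, -0.0022 and 0.032 over all genes. Among genes with a mean of at least 6, a filter not applied to these 56, the shares called were 24.6%, 39.7% and 45.0%. Without liver replicates 1, 3 and 4 the count between heart and liver was 14, and the share called over all genes was 16.5%.

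Among proteases that release receptor ectodomains, all 3 passed between brain and liver, and 2 of 3 in each other comparison, against 25.1% of all genes between brain and liver, 15.4% between brain and heart and 27.8% between heart and liver. Mmp14, a membrane metalloproteinase reported to cleave TEK, reached 9.55 ± 0.45 in liver, with brain and heart at 6.02 ± 0.14 and 6.60 ± 0.21, which is 11.5-fold over brain (limma adjusted p = 1.49e-11) and 7.71-fold over heart (limma adjusted p = 2.72e-10). Its difference between brain and heart was -0.58 (limma adjusted p = 0.0238) and did not pass without heart replicate 1 (-0.50, limma adjusted p = 0.0637) or brain replicate 4 (-0.53, limma adjusted p = 0.0599), nor without heart replicates 1 and 3 (-0.48, limma adjusted p = 0.126). Adam10 was higher in brain (9.89 ± 0.10), with heart and liver at 9.37 ± 0.23 and 9.42 ± 0.17 (SD, n = 5 each). Without liver replicates 1, 3 and 4 its difference of brain from liver was 0.46 (limma adjusted p = 0.0515). Adam17 was lower in liver than in brain by 1.35-fold and than in heart by 1.25-fold (limma adjusted p = 0.000349 and 0.00468).

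Partners of the receptors at the cell surface that passed against brain were lower in brain. Of 5 measured, 3 were lower in brain than in heart and 2 lower than in liver, with 0 higher in either; over all genes 7.11% and 14% were lower. Between heart and liver 1 was higher and 1 lower in heart. The junction cadherin Cdh5, which PTPRB binds, had brain, heart and liver means of 11.50 ± 0.11, 12.06 ± 0.17 and 11.73 ± 0.26, so its order over the tissues was not that of Ptprb. Cdh5 was the 1 gene higher in heart than in liver (0.33, limma adjusted p = 0.0436). That call held in 5 of 15 fits with 1 array left out (limma adjusted p up to 0.119). It ended in a fit of only these tissues (limma adjusted p = 0.0774) and without liver replicates 1, 3 and 4 (0.11, limma adjusted p = 0.719). The integrin subunit Itgb3 was 1.98-fold higher in liver than in brain (limma adjusted p = 1.22e-05). Itga5, part of the fibronectin receptor, was 1.39-fold lower in brain than in heart (limma adjusted p = 0.0359), a call that ended without any 1 of 8 of the 15 arrays (limma adjusted p up to 0.0882). Its difference of brain from liver (-0.44, limma adjusted p = 0.0361) did not pass without any 1 of 6 arrays (limma adjusted p up to 0.0967), with centring (-0.30, limma adjusted p = 0.118), in a fit of only these tissues (limma adjusted p = 0.0670) or without liver replicates 1, 3 and 4 (-0.56, limma adjusted p = 0.0696).

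Adaptor genes included the largest differences among these pathway lists. Grb14, an adaptor that docks on the phosphorylated receptor, reached 9.28 ± 0.25 in brain, 10.9-fold above heart (5.84 ± 0.31) and 12.7-fold above liver (5.61 ± 0.16). Its relative Grb7 was 2.54-fold and 2.82-fold higher in brain. Vav3, also on the adaptor list, ran the other way: brain, at 5.14 ± 0.16, was 9.44-fold below heart (8.38 ± 0.22) and 12.9-fold below liver (8.84 ± 0.34; SD, n = 5 each). The limma adjusted p-values of these 6 differences lay between 9.43e-13 and 3.07e-09. Brain Vav3, heart and liver Grb7 and liver Grb14 were below the 95th percentile of olfactory receptor genes and heart Grb14 (5.84) just above it (5.77), so these folds are against levels near background. Of 11 adaptors, 5 passed between brain and heart, 5 between brain and liver and 3 between heart and liver, against 15.4%, 25.1% and 27.8% of all genes. One of the last 3 was Vav3, whose call between heart and liver ended without any 1 of 6 arrays (limma adjusted p up to 0.0723), with centring (-0.35, limma adjusted p = 0.129) and without liver replicates 1, 3 and 4 (-0.16, limma adjusted p = 0.640).

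In the branch that leads to AKT, 0 of 8 genes passed between brain and heart by limma (15.4% of all genes did), and 3 had an unadjusted p under 0.05. Between brain and liver 3 of 8 passed and between heart and liver 2 of 8, against 25.1% and 27.8% of all genes. Pik3cb, a catalytic subunit of PI3-kinase, was lowest in liver (6.13 ± 0.43), 4.73-fold below brain (8.37 ± 0.19) and 6.69-fold below heart (8.87 ± 0.22; SD, n = 5 each). The regulatory subunit Pik3r1 was 1.45-fold higher in liver than in brain (limma adjusted p = 0.00121). Pik3r1 was also called higher in liver than in heart, which held in 10 of 15 fits with 1 array left out (limma adjusted p up to 0.0773). For heart minus liver it did not pass with centring (-0.24, limma adjusted p = 0.140) or without liver replicates 1, 3 and 4 (-0.35, limma adjusted p = 0.187). Akt1 was 1.31-fold higher in liver than in brain (limma adjusted p = 0.0176); this was -0.25 for brain minus liver with arrays centred on the endothelial genes (limma adjusted p = 0.137), -0.34 without brain replicate 4 (limma adjusted p = 0.0510) and -0.25 without liver replicates 1, 3 and 4 (limma adjusted p = 0.162).

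FOXO1, the factor that AKT restrains and that raises Angpt2, was named after its values were seen. Foxo1 was highest in brain (8.27 ± 0.17), with heart and liver at 7.83 ± 0.14 and 7.96 ± 0.06 (SD, n = 5 each): 1.36-fold over heart (limma adjusted p = 0.00170) and 1.24-fold over liver (limma adjusted p = 0.0136), whereas Angpt2 did not pass in any comparison. Without liver replicates 1, 3 and 4 the difference of Foxo1 between brain and liver was 0.31 (limma adjusted p = 0.121). Of 10 FOXO factors and reported targets, 2 passed between brain and heart, 3 between brain and liver and 5 between heart and liver. Over all genes the shares were 15.4%, 25.1% and 27.8%. Of genes reported to rise with FOXO1, Esm1, a proteoglycan of endothelial tip cells, was 2.40-fold higher in heart than in liver (limma adjusted p = 0.000301). Heart Esm1 was also 1.85-fold above brain (limma adjusted p = 0.00972). Ccng2, a cyclin of resting cells, was 1.86-fold lower in liver than in brain (limma adjusted p = 5.29e-06). Brain and heart were alike for Ccng2 (log2 difference 0.0018, limma adjusted p = 0.995). Bcl6, a transcriptional repressor, was 1.92-fold higher in liver than in heart (limma adjusted p = 0.00456) from a heart mean of 5.75, just under the 95th percentile of olfactory receptor genes there, and did not pass without liver replicates 1, 3 and 4 (-0.71, limma adjusted p = 0.0870).

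Of 12 transcription factors reported at the Tek, Tie1 or Angpt2 genes, 5 were higher in brain than in liver and 2 lower, against 11.1% and 14% of all genes. Between brain and heart 4 were higher in brain and 2 lower (8.29% and 7.11% of all genes), and between heart and liver 5 were higher in heart and 2 lower (11.5% and 16.3%). Gata2 had brain, heart and liver means of 8.08 ± 0.12, 7.58 ± 0.12 and 6.82 ± 0.15, and Epas1, the hypoxia-inducible factor of endothelium, had 11.99 ± 0.16, 11.36 ± 0.15 and 10.80 ± 0.25 (SD, n = 5 each), so both went down in the order brain, heart, liver. Without liver replicates 1, 3 and 4 the difference of Epas1 between heart and liver was 0.32 (limma adjusted p = 0.110). The ETS factor Fli1 was highest in heart, 1.76-fold over liver (limma adjusted p = 1.10e-05). Its difference of heart over brain, 1.30-fold (limma adjusted p = 0.0183), did not pass without brain replicate 4 (limma adjusted p = 0.0514) or without heart replicates 1 and 3 (limma adjusted p = 0.0961).

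Of the angiopoietin-like relatives, which share the domain plan but do not bind TEK, 4 of 6 were measured and 2 passed against liver. Angptl1 was 2.63-fold higher in liver than in brain and 2.82-fold higher than in heart (limma adjusted p = 3.32e-06 and 1.71e-06), folds against brain and heart levels of 4.76 and 4.65 that were below the 95th percentile of olfactory receptor genes. Angptl4, an inhibitor of lipoprotein lipase, was 1.87-fold and 1.94-fold lower in liver (limma adjusted p = 0.00349 and 0.00231), and without liver replicates 1, 3 and 4 its difference of brain from liver was 0.77 (limma adjusted p = 0.0610).

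**Figure D5:**
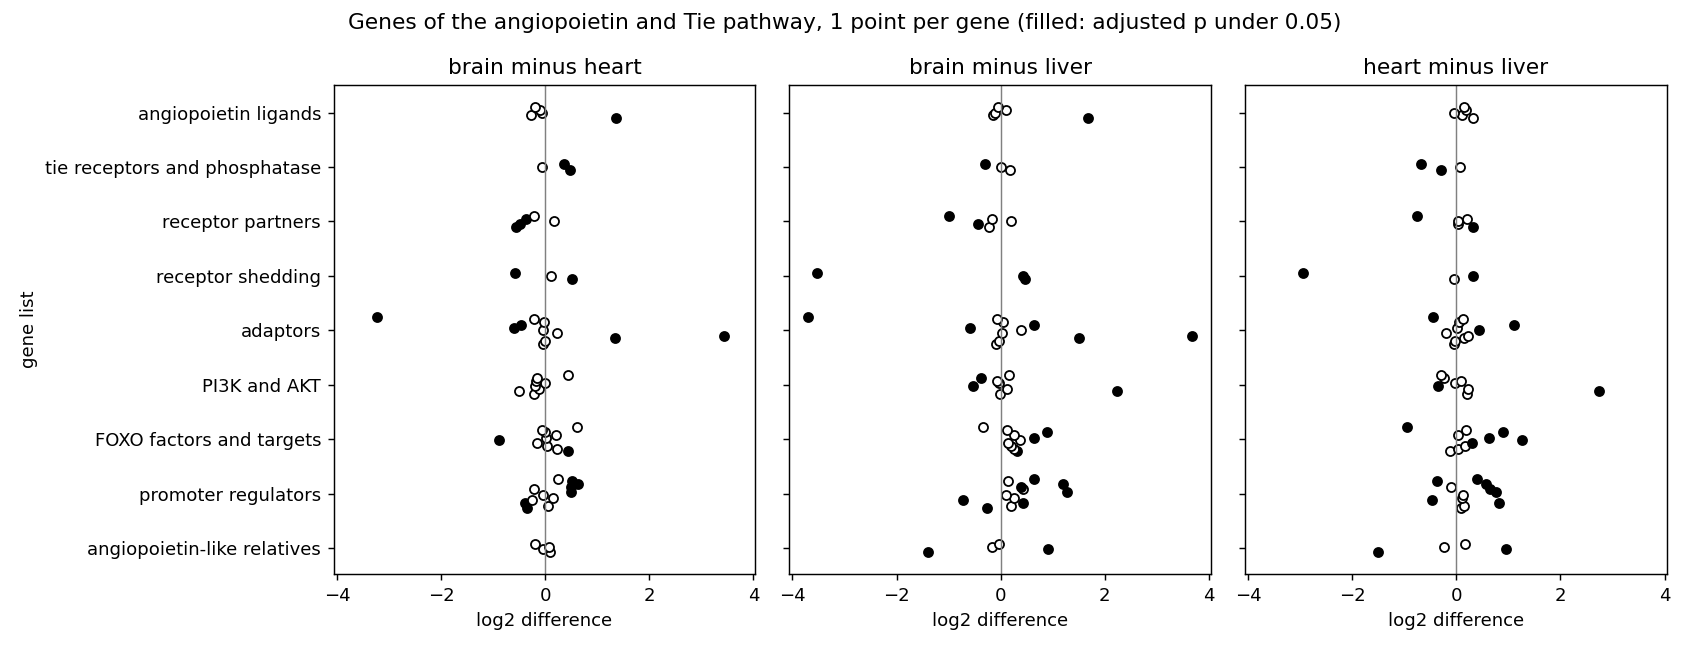
Log2 difference of each pathway gene (horizontal axes) by gene list (vertical axis) in the 3 comparisons, 1 point per gene, filled where limma's adjusted p was under 0.05. The points farthest from 0 are Grb14 and Vav3 among the adaptors, Mmp14 among the proteases and Pik3cb in the PI3K list.

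The genes whose values were most like those of each member over the 15 arrays were found by Pearson correlation among 6639 other named genes with a mean of at least 7 (6640 for Angpt1). The arrays fall into 3 tissues, so a high r mostly says that the tissue means have the same order, and the values are given as a description. For Tek they were St6gal1 (r = 0.96), Macf1 (r = 0.94) and Adgra2 (r = 0.93), each lowest in heart and highest in brain. For Ptprb they were Lbp (r = 0.97), Ctsa (r = 0.97) and Dph6 (r = 0.97), each highest in liver and lowest in heart. For Angpt1, whose own mean was under that minimum, they were Itprid2 (r = 0.94), Tmem184b (r = 0.93) and Itpr3 (r = 0.93), each highest in brain. For Tie1 the closest gene was Ddx39b (r = 0.87), followed by Dcaf5 (r = 0.80) and Btrc (r = 0.77), and for Angpt2 it was Ooep (r = 0.78), followed by Baz1b (r = 0.73) and Lzts2 (r = 0.72); tissue means of these 6 genes lay within 0.21 of each other.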

How the data were processed

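Per the labels' protocols, 5 ng of total RNA of each pool was amplified, labelled with biotin and hybridised. For 35556 probe sets the authors deposited log2 values, made by RMA with Affymetrix Power Tools per the submitters' processing notes; their versions and the genome build of the probe sets are not stated in the labels or file. RMA makes arrays nearly equal in distribution and compresses large differences. GEO's platform annotation gave 1 gene symbol to 21789 probe sets and several to 1621, and 12146 are unnamed here; the highest-mean probe set per symbol left 19938 genes. A linear model with tissue as its factor used all 15 arrays (limma 3.58.1, R 4.3.3, lmFit and eBayes), with 12 residual degrees of freedom, and p-values were adjusted by Benjamini-Hochberg over all genes within each comparison at a threshold of 0.05; folds are powers of 2 of log2 differences. Within-array differences were compared by exact two-sided permutation tests. The limma and permutation scripts were tested on simulated data. Members, gene lists and rules were chosen with earlier results of these data known. Named genes are the members, the other ligands, per pathway list up to 3 genes with the largest difference past the threshold, the 3 genes most correlated with each member, and Foxo1. Precision is limited by 5 arrays per tissue.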

Additional observations from a re-analysis of the deposited data

Results flagged for a closer look

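Among 24 groups of 5 arrays examined (5 genes and 3 within-array differences in 3 tissues), 1 had an array far from the others, and chance alone gives about 1 in 20. It was Tie1 in heart, where replicate 3 read 9.08 and the other 4 arrays 8.87 to 8.90, so that its gap took up 0.857 of the group's range. The whole range of that group was narrow, and no comparison of Tie1 with heart passed the threshold with or without that array.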

How the results depend on the processing

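The alternatives were the replicate number as a block, the mean over a gene's probe sets, a minimum mean of 6, centring on 12 endothelial genes, an intensity trend in eBayes, fits of only the tissues compared and leaving out each array; leaving out heart replicates 1 and 3, or liver replicates 1, 3 and 4, was added after seeing the data. Of 342 values of member differences, 332 kept their direction and side of the threshold, and Angpt1 kept its calls in every fit that held it. The count of members called between brain and liver was 2 to 3 with 1 array left out, 1 with a minimum mean of 6, which removes Angpt1, and 1 without liver replicates 1, 3 and 4. Between heart and liver it was 1 with centring, where Tek lost its call. With 1 array left out, Tie1 ranged from -0.18 to 0.039 for brain minus heart and from -0.098 to 0.12 for brain minus liver, and Ptprb minus Tek from -0.15 to -0.082 for brain minus heart. Without heart replicates 1 and 3, Angpt2 minus Angpt1 for heart minus liver was 0.033. Tie1 minus Tek was then -0.52 for brain minus heart and 0.35 for heart minus liver, and neither passed (adjusted p = 0.0536 for both by exact permutation). With the same arrays left out, Angpt2 minus Angpt1 for brain minus heart and Ptprb minus Tek for heart minus liver still passed. Same-numbered arrays of different tissues had r from -0.0005 to 0.20 in their deviations; 6 of 15 such pairs were over 0.1, against 2 of 60 with different numbers, and in 9 of 15 comparisons of an array with the arrays of another tissue the highest r was with its own number, a hint from the data and not the design. These values do not settle whether same-numbered arrays were handled together, and the numbers were not taken as pairs. With the replicate block, calls over all genes went from 3070, 5003 and 5538 to 3369, 5282 and 5936 and the members called stayed 3, 2 and 2. The permutation tests of the within-array differences were run without such a block.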
